A study of Mus musculus with 4 samples.

Results

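The fibroblast and platelet-derived growth factor genes were examined in adult mouse heart through trimethylation of histone H3 at lysine 4 (H3K4me3), a mark of active and poised promoters. Members were the protein-coding genes whose symbol starts with Fgf or Pdgf in the GENCODE annotation of mm10, which gave 38 of 21670 genes outside chromosome Y and the mitochondrial genome. Of these, 31 start with Fgf and 7 with Pdgf. Fgfr1op and Fgfr1op2 entered by name only: they encode partners of receptor gene fusions and are neither growth factors nor receptors.

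The tissue was whole heart of female B6CASTF1/J mice aged 2 months, an F1 hybrid of C57BL/6J and CAST/EiJ mice, with no treatment named. ChIP-seq was run on 2 pools, called G and H, each made of 2 heart biosamples and each read as 2 technical libraries, and the labels give both pools the same donor record, so their spread may not be that between separate animals. The authors deposited 4 peak lists on mm10: a replicated list and a pseudoreplicated list of both pools, and a list for each pool alone. They hold 24996, 26412, 24826 (pool G) and 21505 (pool H) peaks, with no values per library and no read depth, so pool values are set side by side without a test. Promoters of the heart's own cells were marked: all 4 cardiomyocyte markers (Myh6, Tnnt2, Actn2, Ryr2), all 4 endothelial and all 4 fibroblast markers had a peak in both pools, whereas none of the 3 hepatocyte markers did. Of the 4 mural markers, 3 had a peak in both pools, and Rgs5 had one in pool G only. Of the immune markers (Ptprc, Cd68, Csf1r, Lyz2) only Csf1r had a peak, in pool G alone; Fabp4 alone of 3 adipocyte markers and Syt1 alone of 3 neuronal markers had one in the replicated list. In whole tissue, a mark in few cells and a weak mark in many cannot be told apart.

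Fibroblast growth factors (FGFs) are secreted ligands that bind receptor tyrosine kinases together with heparan sulfate, or with a Klotho protein in the case of the hormone-like members, and drive the Ras-MAP kinase and PI3 kinase pathways. Platelet-derived growth factors (PDGFs) are dimeric ligands for the tyrosine kinases Pdgfra and Pdgfrb, which in heart are known chiefly from fibroblasts and from pericytes and smooth muscle. In the heart, endothelial PDGF-B recruits mural cells to vessels, and FGFs act in cardiac growth and repair.

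Promoter sequences of 5 members serve as examples of differing base composition and do not span its full range. They run from 250 bases before to 50 after the RefSeq start on GRCm38.p6, 5′ to 3′ on the gene's strand, with each CG dinucleotide in capitals. Fgfr3 (chr5:33721474-33721773, plus strand, 26 CG) stands for CpG-rich marked starts, and Fgf4 (chr7:144861136-144861435, plus strand, 28 CG) and Fgf3 (chr7:144838362-144838661, plus strand, 14 CG) had no peak in spite of many CG. Pdgfd (chr9:6168236-6168535, plus strand, 8 CG) is a CpG-poor marked promoter, and Fgf21 (chr7:45615441-45615740, minus strand, 9 CG) a CpG-poor one without a peak.
Fgfr3: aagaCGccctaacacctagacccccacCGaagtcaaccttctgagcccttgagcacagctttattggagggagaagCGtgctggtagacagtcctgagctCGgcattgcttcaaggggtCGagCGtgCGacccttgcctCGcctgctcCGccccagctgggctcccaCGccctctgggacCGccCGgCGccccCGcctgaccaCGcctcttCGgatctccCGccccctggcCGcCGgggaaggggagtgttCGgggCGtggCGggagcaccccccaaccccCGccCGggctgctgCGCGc
Fgf4: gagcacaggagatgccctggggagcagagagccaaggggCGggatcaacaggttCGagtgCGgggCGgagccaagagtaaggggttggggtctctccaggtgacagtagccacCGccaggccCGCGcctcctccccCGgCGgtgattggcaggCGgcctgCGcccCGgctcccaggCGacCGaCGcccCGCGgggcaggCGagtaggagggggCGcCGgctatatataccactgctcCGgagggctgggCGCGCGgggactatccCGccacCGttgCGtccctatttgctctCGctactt
Fgf3: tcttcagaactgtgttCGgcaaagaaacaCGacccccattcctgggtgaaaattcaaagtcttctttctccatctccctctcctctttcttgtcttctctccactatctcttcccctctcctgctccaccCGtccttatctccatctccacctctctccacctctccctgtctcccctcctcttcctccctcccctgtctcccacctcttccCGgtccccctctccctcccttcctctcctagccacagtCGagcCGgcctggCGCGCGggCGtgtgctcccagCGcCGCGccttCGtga
Pdgfd: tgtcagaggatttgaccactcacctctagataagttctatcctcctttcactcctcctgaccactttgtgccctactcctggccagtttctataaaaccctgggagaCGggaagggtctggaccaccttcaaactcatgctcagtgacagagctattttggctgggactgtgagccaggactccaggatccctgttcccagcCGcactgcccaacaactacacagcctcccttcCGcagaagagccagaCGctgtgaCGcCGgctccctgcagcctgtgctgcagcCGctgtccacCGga
Fgf21: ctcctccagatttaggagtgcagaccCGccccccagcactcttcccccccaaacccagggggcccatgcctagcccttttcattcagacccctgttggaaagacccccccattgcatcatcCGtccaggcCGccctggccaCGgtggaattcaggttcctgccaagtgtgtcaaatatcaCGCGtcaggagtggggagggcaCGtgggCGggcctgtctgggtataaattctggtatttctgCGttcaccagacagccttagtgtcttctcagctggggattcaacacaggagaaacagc

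A promoter peak, meaning a peak overlapping the 1000 bp on either side of an annotated coding start by at least 1 bp, was found for 30 of 38 members (78.9%), against 63.0% of all protein-coding genes in the replicated list. The same 30 members had a promoter peak in each of the 4 lists, where the share over all genes with a peak in every list was 61.1%. For the separate lists the share was 63.4% (pseudoreplicated), 63.4% (G alone) and 61.3% (H alone). All 7 Pdgf genes were marked. Of the 22 genes that encode an FGF, 15 were marked, and the genes without a peak were Fgf3, Fgf4, Fgf6, Fgf7, Fgf17, Fgf21, Fgf23 and the binding protein gene Fgfbp1. Leaving out the 2 name-only members gave 28 of 36.

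**Figure D1:**
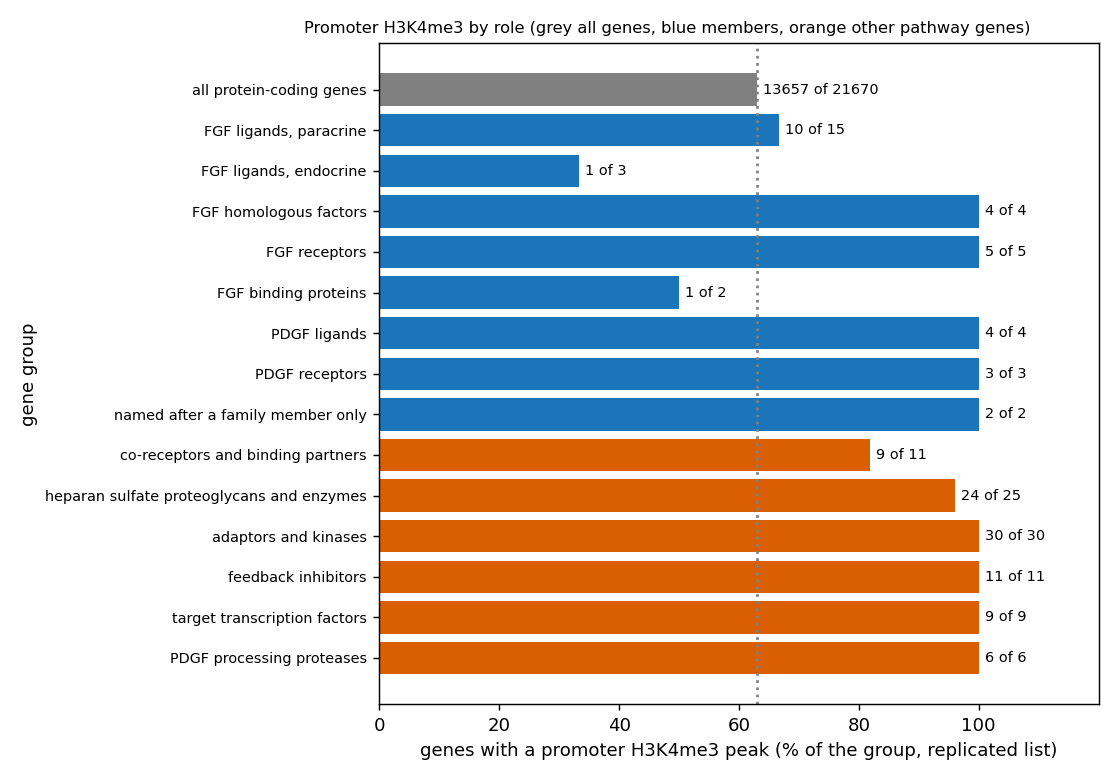
Share of genes with a promoter H3K4me3 peak in the replicated list (x axis, % of the group) for all protein-coding genes (grey), for each role among the members (blue) and for other genes of the pathways (orange), with counts beside the bars; the dotted line is the share over all genes. Every receptor, every PDGF ligand and every FGF homologous factor was marked, against 10 of 15 paracrine and 1 of 3 endocrine FGF ligands.

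Where marked, members mostly carried less enrichment than other marked genes. The fold enrichment of a peak is the authors' value, read from the signal column of their lists, and a gene is given its highest promoter peak. The median over the 30 marked members was 8.86 in the replicated list, against 15.3 over all 13657 marked genes, and 22 members lay below that median and 8 above it. The medians were 10.9 against 18.2 in pool G and 7.90 against 12.9 in pool H. The members above the replicated median were Fgfr1, Fgfr2, Fgfr3, Pdgfb, Pdgfd, Fgf20, Fgfbp3 and Fgfr1op2. Of these, Fgf20, Fgfr2 and Fgfr1op2 were above it only through peaks at starts shared with another coding gene. At starts not so shared, 28 members had a peak, 5 above the median and 23 below it. That median still included peaks at shared starts of all genes, so this comparison is not like for like.

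**Figure D2:**
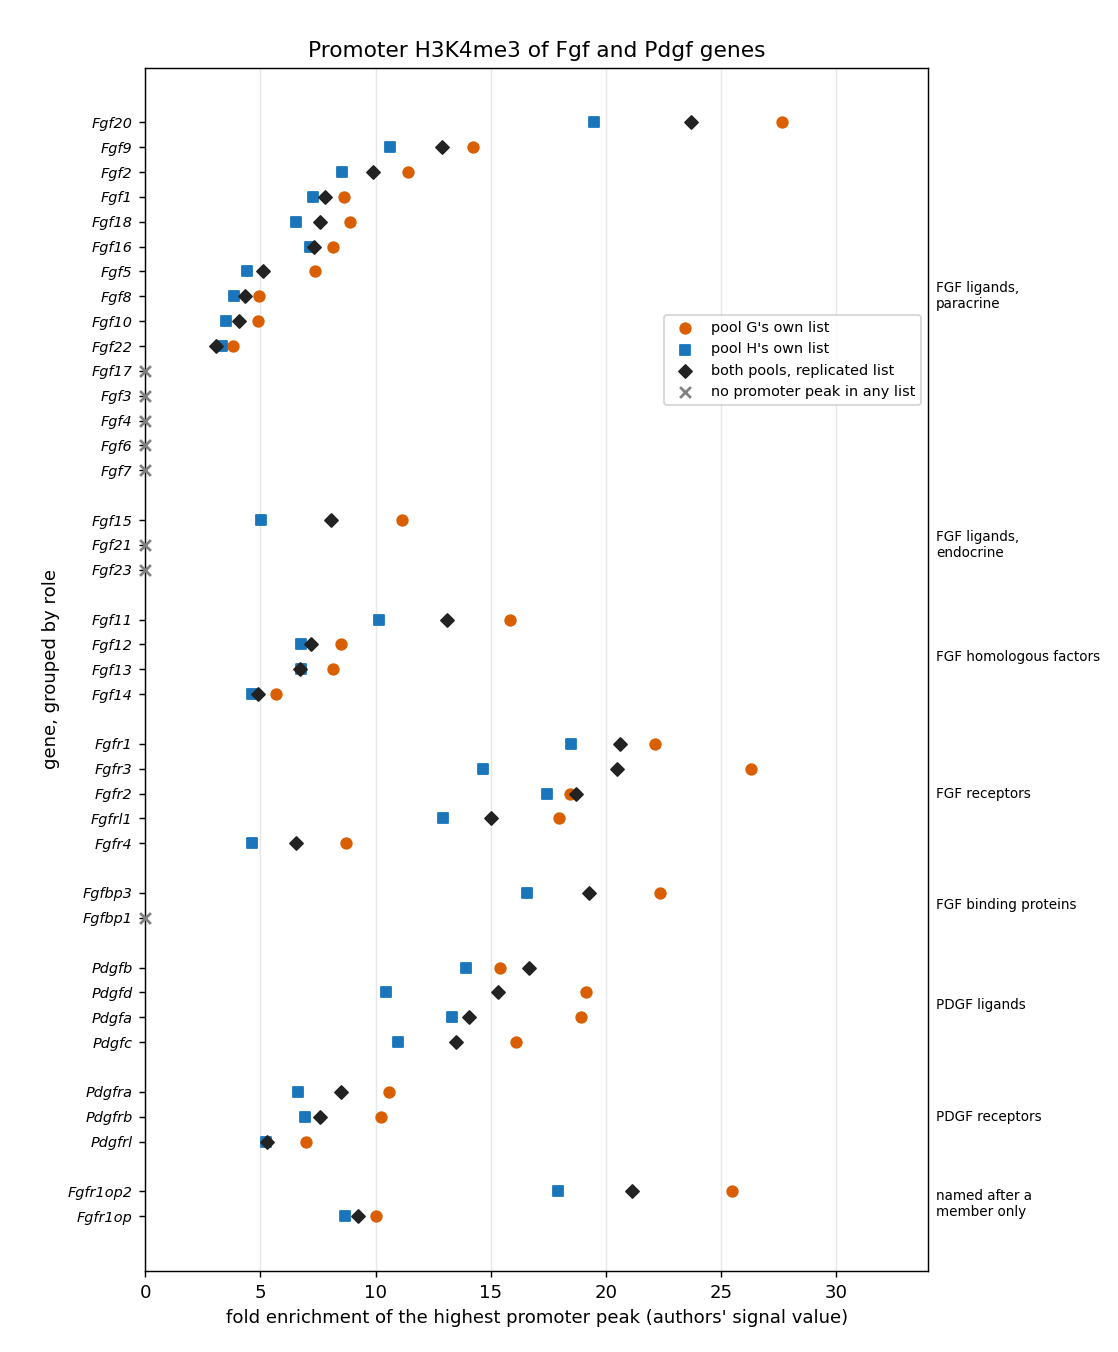
Fold enrichment of the highest promoter peak (x axis, authors' signal value) for each member, grouped by role, in the replicated list (black), pool G (orange) and pool H (blue); crosses at 0 are members with no promoter peak in any list. The receptors Fgfr1, Fgfr2 and Fgfr3 and the 4 PDGF ligands stand to the right of most FGF ligands; the points of Fgf20 and Fgfr2 come from far starts shared with Micu3 and Ctbp2.

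Among the FGF receptors, Fgfr1, the main FGF receptor of the mesenchyme and heart, had a fold enrichment of 20.6 in the replicated list, 22.2 in pool G and 18.5 in pool H. Fgfr3, a receptor best known from cartilage, had 20.5, 26.3 and 14.7 in the same order, so the 2 genes were alike in the replicated list and their order differed between pools. Fgfrl1, a receptor-like protein without a kinase domain, had 15.0, 18.0 and 12.9. Fgfr4, the receptor through which intestinal FGF acts on liver, was lowest of the 5 with 6.54, 8.71 and 4.63, and its domain was also narrow, 648 bp in the replicated list. Fgfr4 lay under the other 4 receptors in both pools.

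Fgfr2, which encodes the receptor for FGF7 and FGF10 in epithelia, needs care because of its annotation. Among its transcripts, 1 starts at chr7:133123350, 2857087 bp from the other starts of the gene, within a peak that also covers the start of Ctbp2, and 36 further peaks lie between the 2 places. That far peak gave the gene's highest fold (18.7, 18.4 and 17.5 in the replicated list, pool G and pool H). At its own starts (chr7:130266191-130266263, minus strand) the peak of 1929 bp had 11.8, 12.6 and 11.7. The start at chr7:130261857, which serves 13 annotated transcripts, had no peak in any list. With Fgfr2 taken at its own starts, the median over the 5 FGF receptors was 15.0 in the replicated list, against 15.3 over all marked genes. The 15.3 still included peaks at shared starts, so these medians are not on the same measure.

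The PDGF ligand genes differed little from each other in enrichment. Pdgfb, the endothelial ligand that recruits pericytes, had 16.7 in the replicated list, 15.4 in pool G and 13.95 in pool H. Pdgfd, which encodes a ligand activated by proteolysis and selective for Pdgfrb homodimers, had 15.3, 19.1 and 10.5. Pdgfa, the classic ligand of Pdgfra, had 14.1, 18.9 and 13.3. Pdgfc, the other proteolytically activated ligand, had 13.5, 16.1 and 11.0. Pdgfd was the highest of the 4 in pool G and the lowest in pool H, so their order did not hold between pools.

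The receptor genes of the PDGFs carried less. Pdgfra, a marker of cardiac fibroblasts, had 8.49, 10.6 and 6.62 in the replicated list, pool G and pool H, and Pdgfrb, a marker of mural cells, had 7.60, 10.2 and 6.94. Pdgfrl, which encodes a PDGF receptor-like protein without a kinase domain, had 5.29, 6.98 and 5.23. In each list all 3 receptor genes lay under all 4 PDGF ligand genes, without overlap. The fibroblast markers Col1a1, Col1a2, Dcn and Tcf21 had 3.94 to 7.98 in the replicated list, and the mural markers Cspg4, Kcnj8 and Notch3 had 8.18 to 9.53, while the mural marker Rgs5 had a peak in pool G only (4.17). The Cspg4 peak, which gave the 9.53, also covers the start of Odf3l1. The endothelial markers Pecam1, Cdh5, Kdr and Tie1 had 7.82 to 17.2. The parts of cell type shares and of CpG content in these levels were not tested.

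Of the 15 paracrine FGF ligands, 10 were marked (66.7%, near the 63.0% of all genes), with a median fold of 7.45. Fgf20 had the highest value of all members (23.7, 27.6 and 19.5 in the replicated list, pool G and pool H), but this peak lies at a far start, chr8:40308331, that it shares with Micu3, which encodes a regulator of mitochondrial calcium uptake. The other start of Fgf20, at chr8:40286953, had no peak in any list. Among ligands marked at starts of their own, Fgf9, which encodes a growth factor of the embryonic epicardium and endocardium, was highest with 12.9, 14.2 and 10.6. Fgf2 and Fgf1, the ligands without a classical signal peptide that are abundant in adult tissue, followed with 9.90, 11.4 and 8.53 for Fgf2 and 7.79, 8.61 and 7.27 for Fgf1.

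Near them, Fgf18, a ligand of cartilage and lung development, had 7.60, 8.90 and 6.55, above Fgf1 in pool G and below it in pool H, and Fgf16, a ligand known from cardiomyocytes, had 7.31, 8.14 and 7.13. Fgf18 and Fgf16 changed order between pools, since Fgf18 was higher in pool G and lower in pool H. The lowest group held ligands best known from the embryo or skin and brain. Fgf5, the regulator of hair length, had 5.09, 7.38 and 4.43, and Fgf8, a ligand of limb, brain and early heart patterning, had 4.32, 4.92 and 3.86. Fgf10, made by lung and heart field mesenchyme, had 4.05, 4.91 and 3.49. Fgf22, a synaptic organiser, was the weakest marked member with 3.08, 3.79 and 3.31, and its promoter peak spanned only 256 bp. It was the only member lost when peaks were held to a −log10 q of at least 5.

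The endocrine FGFs were the least marked role, with 1 of 3, against 63.0% of all genes. Fgf21 and Fgf23, the unmarked ones, had CpG-poor promoters, a class in which 46.0% of all genes were marked. Fgf15, the intestinal hormone that limits bile acid synthesis, had 8.08 in the replicated list, 11.2 in pool G and 5.01 in pool H. Pool G was 2.23 times pool H here, the highest such ratio among the members, while the largest difference between pools was that of Fgfr3 (11.7). Fgf21, the fasting-induced liver hormone, had its nearest peak 11375 bp from its start in the replicated list, and Fgf23, the bone hormone of phosphate balance, had it at 6939 bp. The nearest peak to the Fgf23 start lay inside the gene over an exon, at chr6:127079841-127080429, with a fold of 5.09 in the replicated list, 5.87 in pool G and 4.63 in pool H.

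The 4 FGF homologous factors are intracellular proteins that bind voltage-gated sodium channels rather than act as secreted ligands. All 4 were marked, against 63.0% of all genes. Fgf11 had 13.1, 15.8 and 10.2 in the replicated list, pool G and pool H, Fgf12 had 7.21, 8.52 and 6.75, and Fgf13, the main homologous factor of the mouse heart, had 6.73, 8.14 and 6.75. Fgf14, known from cerebellar neurons, had 4.90, 5.68 and 4.63. Fgf14 was lowest and Fgf11 highest in every list, and Fgf12 and Fgf13 were at the same value in pool H. Of the binding proteins, which release FGFs from the matrix, Fgfbp3 had 19.3, 22.3 and 16.6 and Fgfbp1 had no peak. The name-only members Fgfr1op, which encodes a centrosomal protein, and Fgfr1op2 had 9.24 and 21.1 in the replicated list, the latter in a peak over the start of Ints13 as well.

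The 8 members without a promoter peak were far from any peak, and none lay just outside the 1000 bp limit. The closest was Fgf17, a ligand of midbrain and cerebellar patterning, whose nearest peak lay 5959 bp away at the start of Dmtn in the replicated list. In pool H that distance was 16470 bp, and there Fgf23 (6959 bp) and Fgf21 (11452 bp) were closer to a peak. Fgf7, the keratinocyte growth factor, was farthest, with 116603 bp to the nearest peak. Fgf6, a muscle ligand, was 64255 bp away, and Fgfbp1 31850 bp. On chromosome 7, Fgf3, Fgf4 and Fgf15 follow each other, with gaps of 2930 bp between Fgf3 and Fgf4 and 31287 bp between Fgf4 and Fgf15. Only Fgf15 of these 3 was marked, and its peak was the nearest to both Fgf4 (34064 bp) and Fgf3 (56855 bp). Fgf6 and Fgf23 are neighbours on chromosome 6 with a gap of 44714 bp, and neither was marked.

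Width separated the members in another order. Peaks at most 1000 bp apart were joined into domains, and the median of the widest promoter domain per marked member was 1737.5 bp, against 1799 bp over all marked genes. Domains of 4 of 30 members were over 5000 bp, against 3.51% of marked genes: Pdgfb, Fgf9, Pdgfa and Pdgfra, a bound chosen after seeing the widths. Of these, Fgf9, Pdgfa and Pdgfra had a fold below the median of all marked genes. At the other end, 5 of 30 members had domains under 1000 bp, against 12.0% of marked genes: Fgf22, Fgf8, Fgfr4, Pdgfrl and Fgf10.

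**Figure D3:**
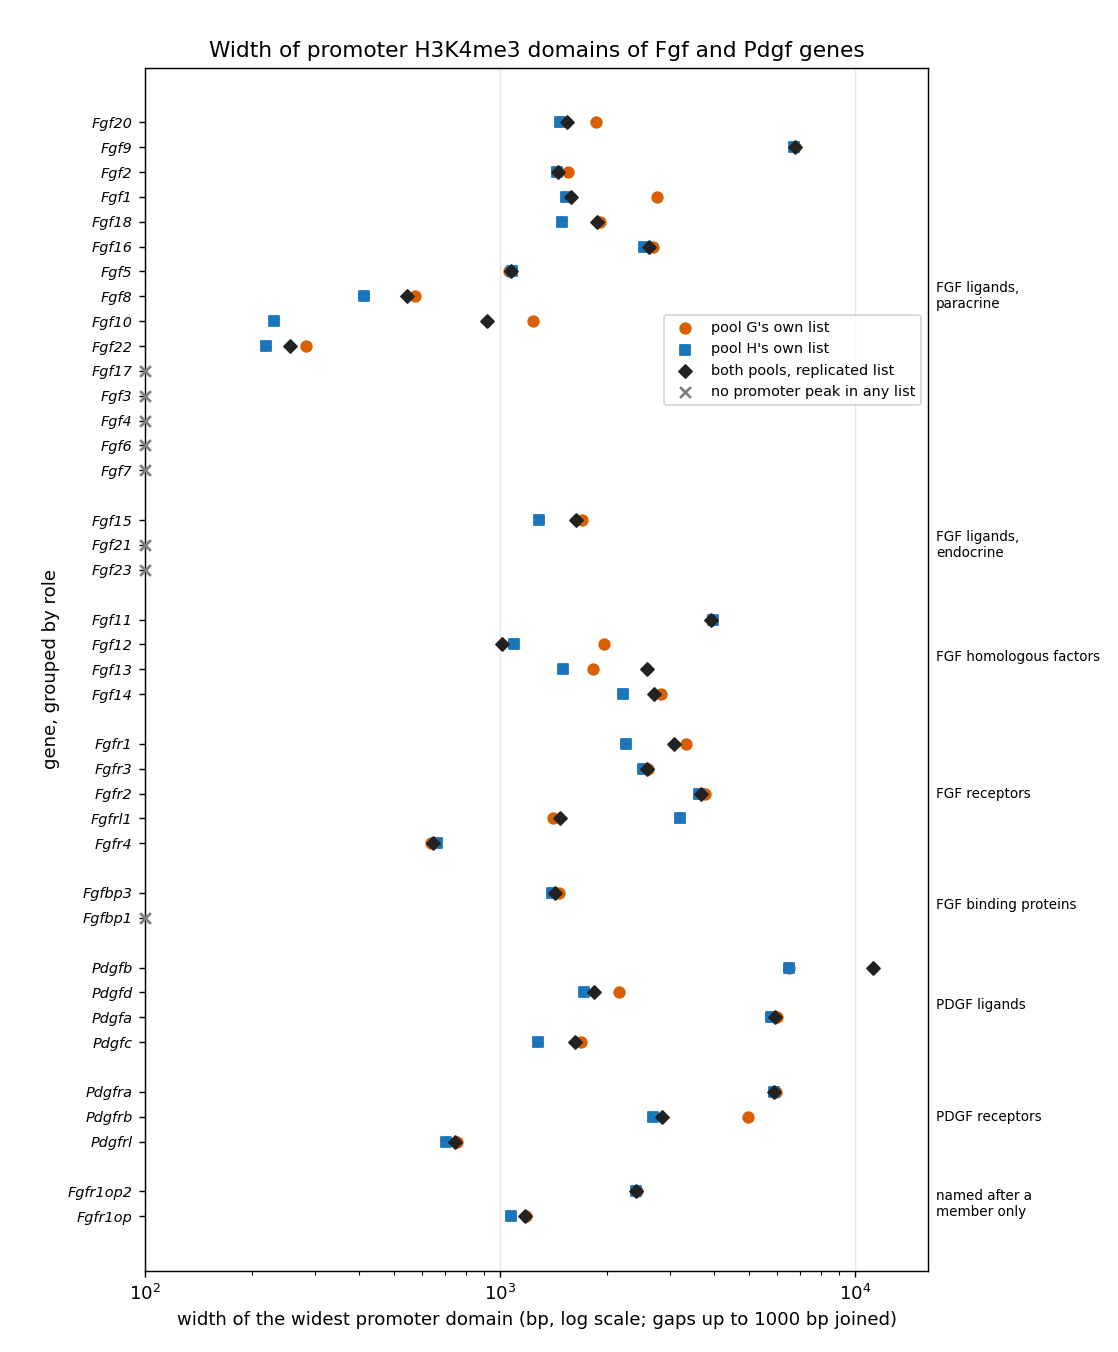
Width of the widest promoter domain (x axis, bp, log scale) for each member by role, in the replicated list (black), pool G (orange) and pool H (blue); crosses at the left edge are members with no promoter peak. Fgf9, Pdgfa and Pdgfra have nearly the same width in all 3 lists, whereas Pdgfb is wider in the replicated list (11184 bp) than in either pool (6503 and 6506 bp).

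The Pdgfb domain in the replicated list covered 11184 bp, at percentile 99.9 of all marked genes (chr15:80004225-80015408). It joined a main peak of 5109 bp over both annotated starts with 6 weak peaks inside the gene, of fold 2.40 to 3.55. In the pools' own lists the joined domain was 6503 bp (G) and 6506 bp (H), and in the pseudoreplicated list 6546 bp. The weakest of the 6 inner peaks, 178 bp wide with a −log10 q of 1.09, was missing from these 3 lists. The main peak alone measured 5137 bp and 4483 bp in G and H.

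Fgf9 had a domain of 6739, 6767 and 6727 bp in the replicated list, pool G and pool H (percentile 98.7). Its 4 starts all lay under the mark, which was 1 unbroken peak in pool G and several peaks in the other lists. Pdgfa had 5931, 5996 and 5798 bp (percentile 98.0), with all 4 of its starts covered by 3 peaks. Pdgfra had 5912, 5976 and 5899 bp (also 98.0), made of 5 promoter peaks in the replicated list, the highest of them at the start at chr5:75156833. Between pools these 3 widths differed by no more than 198 bp.

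The other PDGF and receptor genes were narrower. Pdgfrb had 2845, 4994 and 2686 bp in the replicated list, G and H. Fgfr1 had 3075, 3329 and 2265 bp, and Fgfrl1 had 1471 bp and 1409 bp but 3196 bp in pool H, where a weak peak bridged its starts. Pdgfc and Pdgfd had 1618 and 1838 bp in the replicated list. Fgf10 ranged from 231 bp (H) to 1233 bp (G). Fgf10, Pdgfrb and Fgfrl1 were thus much less alike between the pools than Fgf9, Pdgfa and Pdgfra.

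**Figure D4:**
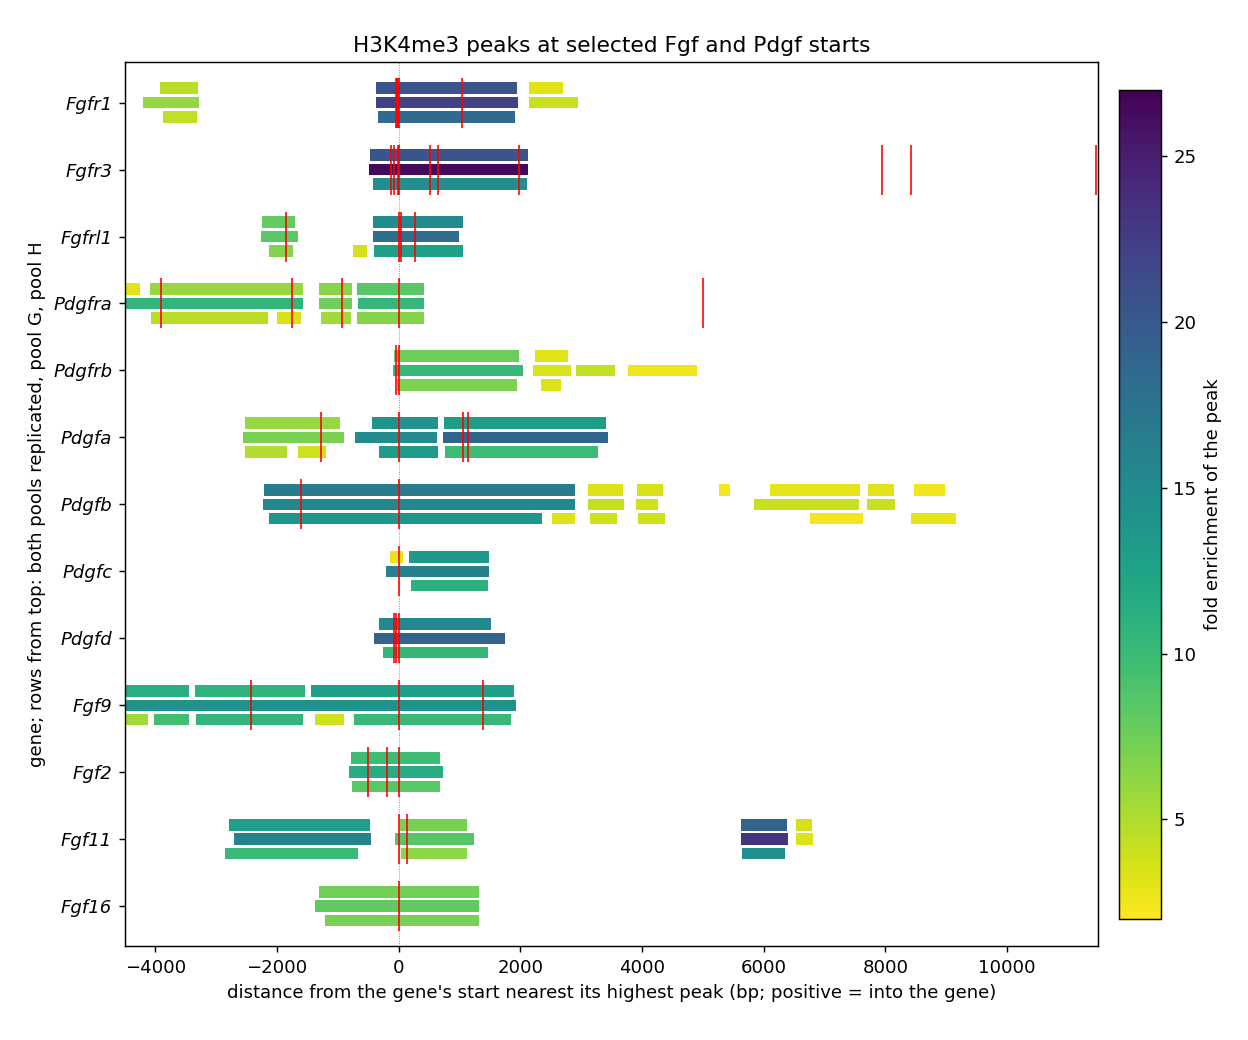
Positions of H3K4me3 peaks at 13 members, as distance in bp from the start nearest to the highest peak (x axis, positive into the gene); the 3 rows per gene are the replicated list, pool G and pool H, colour is fold enrichment, and red lines are annotated coding starts. Pdgfb, Pdgfa, Pdgfra and Fgf9 carry runs of several peaks or 1 long peak over several starts; in Fgf11 the stronger peak lies upstream of its starts, and the peak near its far end lies at the start of Chrnb1.

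The highest promoter peak covered a start of its gene in 26 of 30 marked members (86.7%), against 90.7% of marked genes. Its summit lay downstream of the nearest start in 18 of 30 members (60.0%) and upstream in 12; over all marked genes 77.5% were downstream. In 3 members it also covered a start of another coding gene (Fgf20, Fgfr2 and Fgfr1op2), against 17.3% of marked genes. The 4 members whose highest peak missed the start were Fgf11, Fgfbp3, Pdgfc and Fgfr1op. In Fgfbp3 the highest peak began 149 bp and in Pdgfc 171 bp downstream of the annotated start. The Pdgfc start itself lay under a separate weak peak of fold 2.90 in the replicated list. In pool G the main Pdgfc peak (16.1) covered the start, and in pool H it began 202 bp downstream. In Fgf11 a peak of fold 7.21 (chr11:69800729-69801829) covered 1 of the 2 starts, and ended just short of the outer one, chr11:69801857. The stronger peak, of fold 13.1, ran from 474 to 2787 bp upstream of that outer start (chr11:69802331-69804644). RefSeq places a start of Fgf11 423 bp upstream of the nearest GENCODE start used here.

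Many members have alternative starts. When starts at most 1000 bp apart were taken as 1 group, 16 members had 2 or more groups. In 11 of them some but not all groups had a peak, against 55.0% of all genes with 2 or more groups. A peak at 2 or more groups was found in 11, against 21.1% of all genes with 2 or more groups and 31.3% of such genes with any promoter peak. The genes marked at 2 or more groups were Fgf1, Fgf9, Fgf12, Fgf13, Fgfr1, Fgfr2, Fgfr3, Fgfrl1, Pdgfa, Pdgfb and Pdgfra. Fgfr2 is in this list, and among the 7 genes below, only through its far start shared with Ctbp2. Neighbouring groups can share a peak, as the 2 groups of Pdgfb did; groups with different highest peaks were found in 7 of the 16 (Fgf1, Fgf9, Fgf12, Fgf13, Fgfr2, Fgfrl1 and Pdgfra), against 13.1% of all genes with 2 or more groups. Of 45 start groups in the 16 genes, 29 had a peak in the replicated list, 30 in pool G and 27 in pool H.

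The homologous factors, whose alternative first exons encode different N termini, are an example of starts marked unequally. Fgf12 had a peak at its outermost start (3.50, 4.48 and 4.24 in the replicated list, pool G and pool H, at chr16:28753068) and a higher one at its innermost starts (7.21, 8.52 and 6.75), but none at the start between them. Fgf13 had the opposite order: 6.73, 8.14 and 6.75 at the outer starts, and 4.61 and 6.06 at the inner start (chrX:59134436), where pool H had no peak. Fgf14 was marked only at its outer start, chr14:124677127, and not at chr14:124192902.

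Among the ligands, Fgf1 was marked at its outermost starts (7.79) and weakly at the next, chr18:38918771 (2.79 in the replicated list, 3.16 in pool G, no peak in pool H), whereas its 2 inner groups had none. Fgf2 was marked at chr3:37348346-37348850 and not at chr3:37380755. Among the receptors, Fgfrl1 had a fold of 7.98 at chr5:108692382 and 15.0 at chr5:108694230-108694502. The start of Fgfr1 at chr8:25513654 had a peak within 1000 bp in pool G only (6.06), since the peak in the replicated list began 1216 bp from it.

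Marked members were richer in CpG than unmarked ones. A promoter was called CpG-rich where the observed over expected CpG ratio over the start and 1000 bp on either side was at least 0.6 and the GC share at least 0.5 at any start. By this measure 21 of 38 members were CpG-rich (55.3%), against 33.7% of all genes. Of the CpG-rich members 20 of 21 were marked, against 96.7% of CpG-rich genes, and the exception was Fgf3. Unmarked Fgf4, with a ratio of 0.60 when rounded, fell just under the bound. Of the 17 CpG-poor members 10 were marked, against 46.0% of CpG-poor genes. The marked members were lower in fold than marked genes of the same class, with a median of 13.2 against 16.8 in the CpG-rich class and 7.07 against 13.4 in the CpG-poor class.

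**Figure D5:**
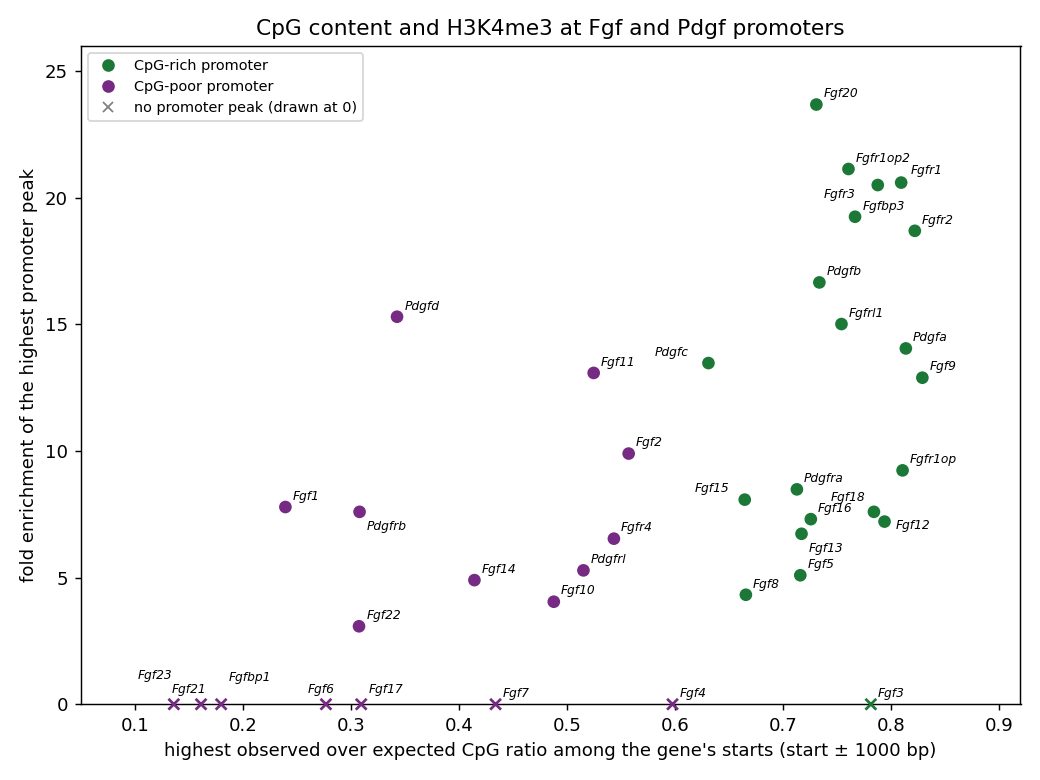
Fold enrichment of the highest promoter peak in the replicated list (y axis) against the highest observed over expected CpG ratio among the gene's starts (x axis) for the 38 members; green is CpG-rich, purple CpG-poor, and crosses at 0 have no promoter peak. Fgf3 is the only green cross, and Pdgfd, Fgf11 and Fgf2 are the highest purple points, with 15.3, 13.1 and 9.90.

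The CpG-poor marked members were Fgf1, Fgf2, Fgf10, Fgf11, Fgf14, Fgf22, Fgfr4, Pdgfd, Pdgfrb and Pdgfrl. Pdgfd stood out among them with a fold of 15.3 at a ratio of 0.34, the sequence printed above holding 8 CG. Among the start groups of genes with several groups, 19 of 20 with a ratio of at least 0.6 had a peak, against 96.3% of such groups over all genes, and 10 of 25 below it, against 23.9%. These groups are not separate observations, since neighbours can share a peak, and the 19 rested on 14 different highest peaks. The unmarked group above the bound was the middle start of Fgf12 (0.69).

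RefSeq promoter sequences were at hand for 27 of the 38 members, and not for Fgf1, Fgf8, Fgf15, Fgf16, Fgf17, Fgf20, Fgfr1, Fgfr1op, Pdgfb, Pdgfrb and Pdgfrl. A peak lay within 1000 bp of the RefSeq start in 19, whose promoters held a median of 20 CG per 300 bases, against 10.5 in the other 8 and 7 over 32619 mouse promoters. These 8 are not the 8 unmarked members. They include Fgf14, a marked member whose RefSeq start is at its unmarked inner start, and they lack Fgf17. The letters TATAAA, on either strand, were in 3 of 19 and 2 of 8, and in 13.7% of all promoters. Both Pdgfd, marked, and Fgf21, unmarked, hold them. The letters GGGCGG, on either strand, were in 11 of 19 and 4 of 8, against 35.9% of all promoters. Fgfr3 holds GGGCGG at 4 places, and unmarked Fgf4 at 2. A match describes the letters only.

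Enrichment was higher in pool G than in pool H for all 30 marked members, as it was for 96.1% of genes with a peak in both, and the domain was wider for 25 of 30, against 88.7%. Most genes, members or not, thus had higher values in pool G's list. The ratio of pool G to pool H had a median of 1.35 over the members and 1.42 over all genes, and ran from 1.06 in Fgfr2 to 2.23 in Fgf15.

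Of the other genes of the 2 pathways, 89 of 92 had a promoter peak in the replicated list, against 63.0% of all genes, with a median fold of 16.7 against 15.3. Of the 92, 70 were CpG-rich, a class in which 96.7% of all genes were marked. Of the co-receptors and binding partners 9 of 11 were marked. Nrp1, a neuropilin that binds PDGF as well as VEGF, was highest and widest (20.9 and 11388 bp), followed by Nrp2 (17.5). The Klotho protein gene Klb, the co-receptor for FGF21, and Flrt1 had no peak in any list. Kl, the co-receptor for FGF23, had a weak one (3.94, 5.30 and 3.47 in the replicated list, pool G and pool H). Of the heparan sulfate genes 24 of 25 were marked, led by Hspg2, which encodes perlecan (22.8 and 11160 bp in the replicated list, 3826 bp in pool H), and Ndst2 (21.3), and Ndst4 had none. In pool H 22 of these 25 were marked, Gpc3 and Ndst3 having no peak there. With the longest transcript only, 7 of the 11 co-receptors and binding partners were marked, without L1cam and Ncam1.

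Downstream of the receptors, all 30 adaptor and kinase genes were marked, with Pdpk1 (26.8) and Pik3ca (22.6) highest and Pik3r1 widest (5589 bp). With the longest transcript only, 29 of the 30 were marked, without Pik3ca. All 11 feedback inhibitors were marked, among them the MAP kinase phosphatase genes Dusp7 (23.1) and Dusp6 (16.6, the widest with 7976 bp) and Spry1, which encodes a Sprouty protein (18.8). The 9 target transcription factor genes were all marked, with Egr1 (19.4) and Etv5 (18.4) highest and Myc widest (4871 bp). So were the 6 genes for proteases that process PDGF precursors, with Furin highest and widest (22.0 and 3089 bp) and Pcsk7 next (17.5). The Pcsk7 peak also covers the start of Rnf214. Over all protein-coding genes the share marked was 63.0%, and in the CpG-rich class 96.7%. That class held 27 of the 30 adaptor and kinase genes and 10 of the 11 feedback inhibitors. It also held 8 of the 9 target transcription factor genes and 4 of the 6 protease genes.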

How the data were processed

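H3K4me3 ChIP-seq of heart from 2 pools was deposited as 4 peak lists on mm10, per the labels and the notes with each library. The caller, its version, its threshold and the read depth are not given in the sources used here, so no interval could be computed. In the deposited lists the authors give each peak a fold enrichment (a ratio; the column has no name, so this reading is an assumption), a −log10 q computed by the authors' peak caller, as deposited, and a summit offset in bp. The replicated list is the main one; 24037 of its 24996 peaks are identical to peaks of the pseudoreplicated list, so these 2 are not independent, and 667 have a q above 0.05.

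Starts of protein-coding transcripts came from GENCODE M21 for GRCm38. A gene was marked where a peak overlapped a start ± 1000 bp by 1 bp or more. Peaks up to 1000 bp apart were joined for widths. CpG content was read from the GRCm38 genome, promoter sequences from RefSeq (GRCm38.p6). Joins and overlaps, in Python 3.11.15 with numpy 2.4.6 and pandas 2.3.3, were tested on simulated data against bedtools 2.31.1 and gave equal counts. Replicates are labelled samples; with 1 list per pool and no values per library, no test between groups was made. Alternatives were the other lists, −log10 q of at least 5, windows of 500 and 2000 bp, the longest transcript, the summit rule, gaps of 0 and 3000 bp, CpG bounds of 0.5 and 0.7, and leaving out the name-only members; dropping starts shared with another gene was chosen after seeing the data.

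The members and lists were chosen with earlier results of these data known. Every member is accounted for; of pathway genes, the 2 with the highest fold and the widest per role and those without a peak are named (Kl in addition, chosen after its value was seen), and other genes only where they share a peak or mark a cell type. Of the pathway genes listed, 92 of the 93 are in the annotation.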

Additional observations from a re-analysis of the deposited data

How the results depend on the processing

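Members with a promoter peak numbered 30 in each of the other 3 lists and with windows of 500 and 2000 bp. There were 29 with a −log10 q of at least 5 (without Fgf22), with the longest transcript only (without Fgf20) and with the summit in the window (without Fgf14), and 28 without starts shared with another coding gene (without Fgf20 and Fgfr1op2), where all genes came to 57.7%. The median fold of marked members ran from 7.90 to 10.9 over all settings, and the median domain from 1513 to 1933.5 bp, with 1703.5 bp when no gaps were joined and 1855 bp with gaps of 3000 bp. With CpG bounds of 0.5 and 0.7, marked CpG-rich members numbered 23 of 25 and 17 of 18. The role counts of the other pathway genes changed by at most 2 genes under the same alternatives. Leaving out a pool amounts to the other pool's own list. No paired analysis was possible because the lists hold no values per technical library and 1 list per pool. Over the 30 members, fold moved by more than the spread between pools in 10 in pool G and 2 in pool H, and width in 12 and 13. That spread was the standard deviation of the same 2 pool values, so it is small where the pools agree. The width of Fgf11 thus counts as moved in pool G (3946 bp against 3916 bp, spread 21.9 bp). These counts do not measure how stable a value is. The unknown depth limits what the 8 unmarked members show: their mark was not detected at the authors' threshold.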

Other observations

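Outside the members' own promoters, 27 peaks of the replicated list lay within the members or 10000 bp of them, leaving out the long span of Fgfr2: 13 over introns, 4 over exons and 10 in the flanks. Some of these lay at starts of other genes. Among the exonic ones were a peak at the start of Chrnb1 (19.3, at Fgf11) and another at the start of Dmtn (3.26, at Fgf17). In the flanks of Fgf2, Fgf8, Fgf22 and Fgfbp3, peaks also lay at starts of other genes. The strongest intronic one was in Pdgfrl, 37051 bp into the gene, with a fold of 5.99 against 5.29 at its promoter; the inner peak was the higher in pool G too (7.95 against 6.98) but the lower in pool H (4.19 against 5.23). Fgf18 had an intronic peak of 3.84 at 23443 bp from its start and Fgfr1 one of 3.65 at 11103 bp; the first had no counterpart in pool H's list and the second none in pool G's. The flank of Fgf2 held 2 peaks of 19.5 and 22.3, above the 9.90 of Fgf2 itself, at starts of Nudt6, which overlaps Fgf2 on the opposite strand, and of Spata5.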
